A study of Mus musculus with 6 samples.

Results

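The genes described here are *Foxp1* and 9 other forkhead transcription factor genes (*Foxp4*, *Foxo1*, *Foxo3*, *Foxo4*, *Foxc1*, *Foxk1*, *Foxk2*, *Foxj2* and *Foxn3*), 10 of the 11234 genes measured in MC3T3-E1 cells with and without cyanidin-3-O-glucoside (C3G). *Foxp1* was chosen by its measured FPKM, which differed between these very groups, so its difference is given as a description without a test, and the question is whether the other forkhead genes share it. The other 9 were taken from a list of names and had to be present in the files, which all of them were. MC3T3-E1 is an established mouse preosteoblast line, and C3G is an anthocyanin, a plant pigment. All cells were labelled as strain C57BL/6 and passage 4, were held in serum-free medium for 24 h, and then received complete medium for 24 h. In the C3G group the medium held 100 μmol/L C3G, and in the control group it held none. Each group has 3 RNA-seq libraries numbered 1 to 3, all from the same line, and the labels do not say whether they came from separate cultures, so p values measure the spread between these libraries, which may be technical.

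Forkhead factors bind DNA through a winged-helix domain, whose recognition helix lies in the major groove and makes most of the base contacts. *Foxp1* and *Foxp4* encode repressors that pair with each other through a leucine zipper. In mesenchymal stem cells FOXP1 is known to restrain senescence and fat cell formation. FOXO1, FOXO3 and FOXO4 are held in the cytoplasm when AKT phosphorylates them, and in the nucleus they switch on genes for antioxidant enzymes and cell cycle arrest. In osteoblasts FOXO1 is known to work with ATF4 and RUNX2. FOXC1 is needed for the skull vault, the bone from which MC3T3-E1 cells derive.

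The feature that unites the family is the recognition helix, so the coding bases of 14 residues that begin at its conserved tryptophan are shown for the 9 members whose change is in question. They come from the longest coding GENCODE M21 transcript that holds them. Capitals mark the 17 of 42 bases that are the same in all 9.
Foxp4: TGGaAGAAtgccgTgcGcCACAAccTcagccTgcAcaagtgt
Foxo1: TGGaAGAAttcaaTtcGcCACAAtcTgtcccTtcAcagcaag
Foxo3: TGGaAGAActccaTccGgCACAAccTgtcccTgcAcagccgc
Foxo4: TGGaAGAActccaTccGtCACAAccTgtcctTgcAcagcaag
Foxc1: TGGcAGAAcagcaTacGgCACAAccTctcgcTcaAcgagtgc
Foxk1: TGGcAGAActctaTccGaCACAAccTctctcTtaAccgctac
Foxk2: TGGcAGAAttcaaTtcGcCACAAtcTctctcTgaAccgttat
Foxj2: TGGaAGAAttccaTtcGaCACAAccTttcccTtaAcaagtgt
Foxn3: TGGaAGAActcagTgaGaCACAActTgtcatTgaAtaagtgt
Of the 14 encoded residues 8 are the same in all 9. In 7 of the 9 genes the stretch crosses a splice junction. In *Foxp4* its ends lie in exons 13 and 14 of a 17-exon transcript (GRCm38, chr17:47871316-47874640, minus strand). In *Foxc1* (chr13:31807571-31807612, plus strand) and *Foxn3* (chr12:99388391-99388432, minus strand) it lies within a single exon.

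The longest transcripts were also compared with the transcripts of all other genes, since shared stretches would let reads be assigned to either. None of the 75-base stretches of the longest transcripts of *Foxp4*, *Foxo3*, *Foxo4*, *Foxc1*, *Foxk1* or *Foxk2* occurs in a transcript of another gene. In *Foxp1* 4.10% of them also occur in *Gm20696* and *Gm49348*, annotated over its exons on the same strand. In *Foxo1* the share was 6.13% (*Gm20402*, opposite strand), in *Foxj2* 1.67% (*Gm26826*, opposite strand) and in *Foxn3* 0.08% (*Gm6783*). Matches on either strand were counted. The library kit was a stranded one, but how the authors divided shared reads is not given in the sources used here.

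*Foxp1* (ENSMUSG00000030067.17) spans chromosome 6, 98925338 to 99522721, on the minus strand, with 31 annotated transcripts. RefSeq places 3 starts in it, so the 250 bases before each start are shown beside those before the only start of *Foxp4*, the other FoxP gene in the files. Capitals mark matches on either strand to TGTTTAC (a forkhead core site), CCAAT (the NF-Y box) or GGGCGG (a GC box). The windows lie on the minus strand of GRCm38.p6 at chr6:99520994-99521243, chr6:99266516-99266765, chr6:99028299-99028548 and chr17:47924633-47924882.
Foxp1 distal start: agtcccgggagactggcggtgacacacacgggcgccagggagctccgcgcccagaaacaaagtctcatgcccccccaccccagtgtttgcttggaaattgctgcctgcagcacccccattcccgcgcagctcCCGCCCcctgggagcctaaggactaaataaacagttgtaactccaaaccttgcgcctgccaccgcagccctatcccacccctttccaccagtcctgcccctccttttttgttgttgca
Foxp1 middle start: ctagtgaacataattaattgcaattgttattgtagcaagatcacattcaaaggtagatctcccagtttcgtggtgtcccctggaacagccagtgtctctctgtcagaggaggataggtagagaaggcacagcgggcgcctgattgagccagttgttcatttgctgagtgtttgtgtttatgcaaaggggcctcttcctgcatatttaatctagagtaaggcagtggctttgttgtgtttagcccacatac
Foxp1 proximal start: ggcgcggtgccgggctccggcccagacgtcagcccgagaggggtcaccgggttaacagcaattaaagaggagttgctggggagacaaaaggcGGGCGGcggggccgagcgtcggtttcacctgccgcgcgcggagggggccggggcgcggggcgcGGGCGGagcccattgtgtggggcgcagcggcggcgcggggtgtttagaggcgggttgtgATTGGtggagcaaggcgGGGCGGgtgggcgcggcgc
Foxp4 start: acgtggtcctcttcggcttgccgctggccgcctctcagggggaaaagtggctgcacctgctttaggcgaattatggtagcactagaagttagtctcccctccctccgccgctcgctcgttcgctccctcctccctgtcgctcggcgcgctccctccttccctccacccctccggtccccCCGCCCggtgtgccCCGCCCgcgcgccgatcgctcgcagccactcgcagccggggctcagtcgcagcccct
From distal to proximal, the 3 *Foxp1* windows differ in base composition, with 60.8%, 45.2% and 74.0% G or C and 11, 3 and 34 CpG pairs, against medians of 52.4% and 6 over 32851 RefSeq windows. TGTTTAC was found in none of the 10 windows of the 8 members that matched (it is in 3.17% of all windows). Only this exact sequence was searched, so variants of the forkhead site are not marked. CCAAT was in the proximal *Foxp1* window and in the windows of *Foxo1*, *Foxc1* and *Foxk2* (33.8% of all windows). GGGCGG was absent from the middle *Foxp1* window and from that of *Foxn3* (it is in 32.7% of all windows). *Foxo4* and *Foxk1* had no window to match. The files hold 1 value per gene, so the use of the single starts cannot be read from them.

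*Foxp1* was higher in every C3G library than in every control library. Its level was 3.79, 3.27 and 3.20 FPKM (fragments scaled to gene length and library size) in control replicates 1, 2 and 3. In C3G replicates 1, 2 and 3 it was 5.80, 7.87 and 7.87 FPKM. The control libraries lay close together, and C3G replicate 1 lay below the other C3G libraries. The group means were 3.42 ± 0.319 (SD, n = 3) and 7.18 ± 1.2 FPKM (SD, n = 3), a ratio of 2.1. On the log2(FPKM + 1) scale, which understates changes of low genes, the difference was 0.88. Between libraries with the same number it was 0.51, 1.05 and 1.08. It was 0.94 without control replicate 1, 1.01 without C3G replicate 1, and 0.74 after correction of each library for GC content. In the study's own quantitative real-time PCR, with 3 replicates per group, *Foxp1* mRNA showed no significant difference with C3G.

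**Figure D1:**
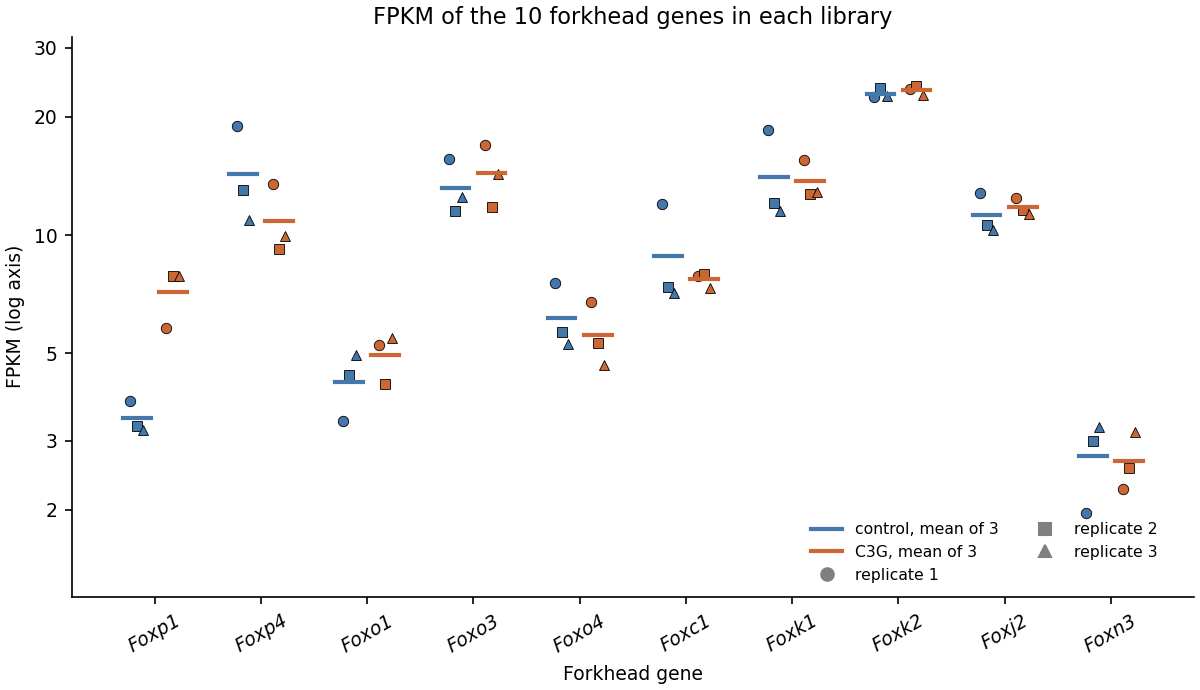
FPKM of the 10 forkhead genes (log axis) in the 3 control (blue) and 3 C3G (orange) libraries; symbols give the replicate number and bars the group mean. The C3G libraries of *Foxp1* lie at 5.80 to 7.87, above its control libraries at 3.20 to 3.79, and in each of the other 9 genes the groups overlap.

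In untreated cells *Foxp1* ranked 15 among the 19 forkhead genes in the files, and 28.3% of all genes had a lower mean. With C3G it ranked 9. It made up 3.23%, 3.46% and 3.50% of the summed FPKM of the 10 members in control replicates 1, 2 and 3, and 5.28%, 8.10% and 7.90% in the C3G replicates. The 9 others summed to 113, 91.4 and 88.3 FPKM in the control replicates and to 104, 89.3 and 91.8 in the C3G replicates, so that their total overlapped between the groups.

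Differences of the other genes were tested with limma over all 11234 genes, and genes that changed by 1.2-fold or more with a two-sided p below 0.05 before adjustment were called. By this rule 0.650% of all genes were called (73 genes), 0.401% as higher and 0.249% as lower with C3G, while 74 had such a p regardless of fold change. After Benjamini-Hochberg adjustment in limma 0 were called. None of the 9 members passed, either with the fold change or at the unadjusted p under 0.05 alone, and with so low a share over all genes a count of 0 among 9 is near that background. Their median difference was -0.01, against 0.06 over all genes, with 4 estimates above 0 and 5 below. The groups did not overlap in 4.02% of all genes and in 0 of the 9. The upper ends of their 95% intervals ran from 0.24 in *Foxp4* to 0.64 in *Foxo1*, and the lower ends from -0.93 in *Foxp4* to -0.25 in *Foxo1*. Whether a member differed from *Foxp1* in its response was not tested, since *Foxp1* was chosen by its difference. The adjusted p was at least 0.992 for all 18 forkhead genes tested, and the exact permutation p values given with single genes are two-sided, with 0.1 as the smallest possible.

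**Figure D2:**
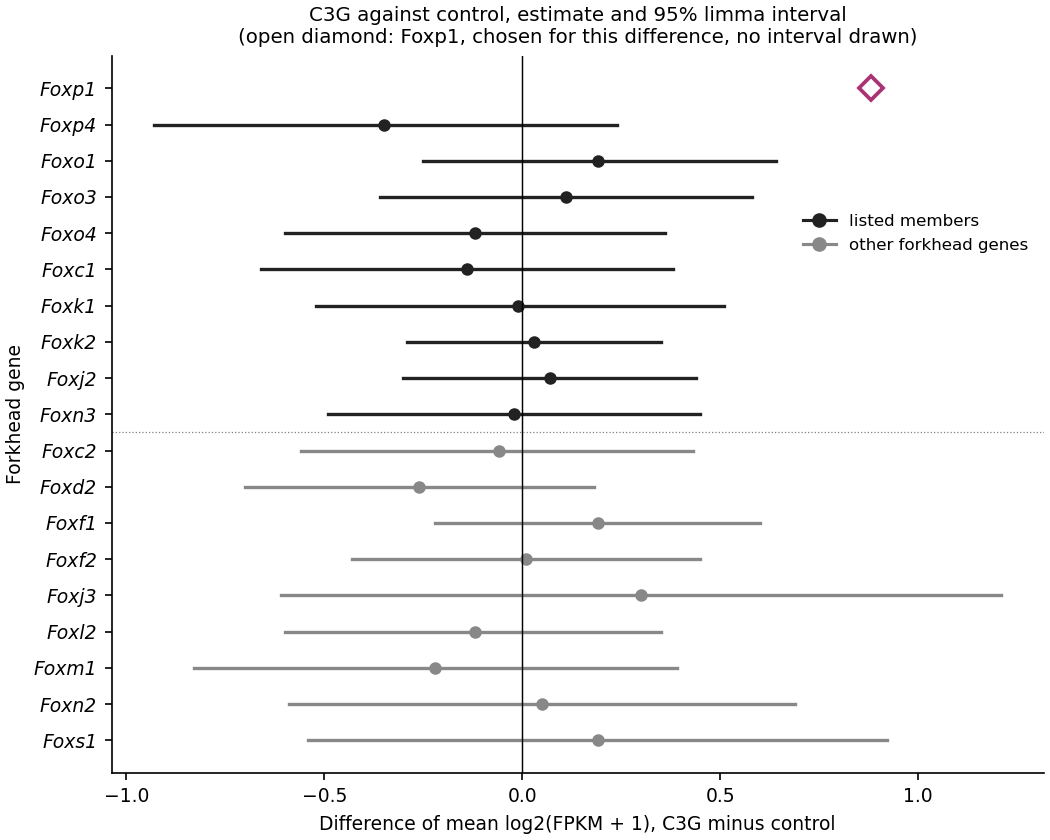
Difference of mean log2(FPKM + 1), C3G minus control, with 95% limma intervals for 18 forkhead genes; black marks the 9 listed members, grey the 9 other forkhead genes, and the open diamond *Foxp1* without an interval. All 18 intervals include 0, and the widest is that of *Foxj3*, from -0.61 to 1.21.

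*Foxp4* (ENSMUSG00000023991.16, chromosome 17, 47867133 to 47924645, minus strand), whose product pairs with FOXP1, had the estimate farthest from 0 of the 9 and pointed the other way. It had 19, 13.0 and 10.9 FPKM in the untreated libraries 1, 2 and 3, against 13.5, 9.22 and 9.93 FPKM after C3G. Each C3G library was below the control of the same number, but C3G replicate 1 was above control replicates 2 and 3, so the groups overlapped. The difference was -0.35 (standard error 0.247, limma adjusted p = 0.992, exact permutation p = 0.3). Without control replicate 1 it was -0.14, and with the GC correction -0.09. With replicates 2 and 3 only it was -0.29 and passed the threshold. The ratio of *Foxp1* to *Foxp4* FPKM, which rests on the difference that chose *Foxp1*, was 0.199, 0.252 and 0.293 in the control replicates and 0.429, 0.854 and 0.792 in the C3G replicates.

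**Figure D3:**
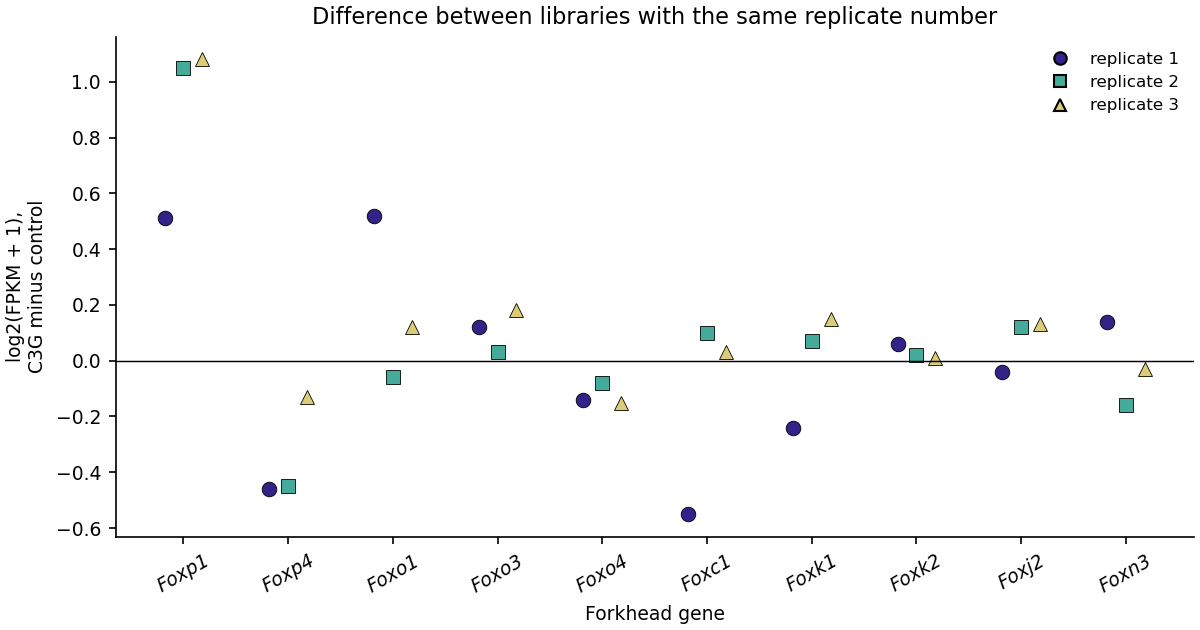
Difference in log2(FPKM + 1) between the C3G and control libraries of the same replicate number for the 10 members; the symbol gives the number. *Foxp1* lies at 0.51 to 1.08, *Foxp4* and *Foxo4* lie below 0 in all 3 pairs, and *Foxo3* and *Foxk2* lie above 0 in all 3 pairs but by at most 0.18.

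The differences of the 3 FoxO genes, counted above among the 9, ran from -0.12 to 0.19. *Foxo3* (chromosome 10, 42181841 to 42276755) was the highest of them, with 15.6, 11.5 and 12.5 FPKM in the untreated libraries, against 17.0, 11.8 and 14.3 FPKM after C3G. Replicate 1 was the highest library in both groups, and the difference of 0.11 was within the spread (standard error 0.198, exact permutation p = 0.6). *Foxo1* (chromosome 3, 52268336 to 52353221) had 3.36, 4.40 and 4.94 FPKM without C3G and 5.26, 4.17 and 5.47 FPKM with it. The largest gap came from replicate 1, where the control library was the lowest of all 6. Its difference was 0.19 (standard error 0.188, exact permutation p = 0.3), and 0.07 without control replicate 1. *Foxo4* (X chromosome, 101254528 to 101260873) had 7.56, 5.67 and 5.28 FPKM in the untreated libraries, against 6.77, 5.30 and 4.68 FPKM after C3G. It was lower with C3G in all 3 pairs by 0.08 to 0.15, a difference of -0.12 (exact permutation p = 0.6). *Foxo6*, the fourth FoxO gene, was not among the genes in the files. The FPKM ratio of *Foxo3* to *Foxo1* was 2.52 to 4.63 in the control libraries and 2.61 to 3.24 in the C3G libraries.

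*Foxc1* (chromosome 13, 31806633 to 31812476), the skull factor, had 12.0 FPKM in control replicate 1, while the other 5 libraries lay between 7.14 and 7.95 FPKM. Its difference was -0.14 (standard error 0.219, exact permutation p = 0.9) with all libraries and 0.08 without control replicate 1. *Foxc2*, its close paralog, was also highest in that library, at 6.36 FPKM in control replicate 1 against 4.05 to 5.28 in the others.

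The FoxK genes encode repressors that recruit the SIN3 complex and hold back autophagy genes in fed cells. *Foxk2* (chromosome 11, 121259990 to 121309896) was the highest and the steadiest member, with 22.5, 23.7 and 22.6 FPKM in the untreated libraries, against 23.5, 24 and 22.7 FPKM after C3G. Its coefficient of variation over the 6 libraries was 2.79%, and its difference was 0.03 with a 95% interval from -0.29 to 0.35 (exact permutation p = 0.4). *Foxk1* (chromosome 5, 142401497 to 142462011) had 18.5, 12.1 and 11.5 FPKM without C3G and 15.5, 12.7 and 12.9 FPKM with it. Replicate 1 was high in both groups, and the group means of 14 ± 3.91 (SD, n = 3) and 13.7 ± 1.59 (SD, n = 3) gave a difference of -0.01 (exact permutation p = 1), or 0.20 without control replicate 1.

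*Foxj2* (chromosome 6, 122819914 to 122845366), which encodes a transcriptional activator, had 12.8, 10.6 and 10.3 FPKM in the untreated libraries, against 12.4, 11.6 and 11.3 FPKM after C3G. Its difference was 0.07 (exact permutation p = 0.6), and 0.01 to 0.16 with 1 library left out. *Foxn3* (chromosome 12, 99190078 to 99563582), a repressor linked to the DNA damage checkpoint, was the lowest member. It had 1.96, 2.99 and 3.25 FPKM without C3G and 2.26, 2.56 and 3.16 FPKM with it, a difference of -0.02 (exact permutation p = 0.9). In *Foxn3* replicate 1 was the lowest library of each group, the reverse of *Foxj2* and *Foxk1*.

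By control mean the members stood in the order *Foxk2* (22.9), *Foxp4* (14.3), *Foxk1* (14), *Foxo3* (13.2), *Foxj2* (11.2), *Foxc1* (8.84), *Foxo4* (6.17), *Foxo1* (4.23), *Foxp1* (3.42) and *Foxn3* (2.73 FPKM). The control libraries of neighbours in this order overlapped, except that every library of *Foxk2* was above every library of *Foxp4* and every library of *Foxo4* above every library of *Foxo1*. In the C3G group *Foxp1* stood above *Foxo4* and *Foxo1*, at 7.18 FPKM against 5.58 ± 1.07 (SD, n = 3) and 4.97 ± 0.695 (SD, n = 3), though its lowest library (5.80) was below the highest of *Foxo4* (6.77).

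The departure of replicate 1 from the other libraries of its group ran with the GC content of the transcripts. In control replicate 1, departures from the mean of control replicates 2 and 3 were 0.66 in *Foxc1*, 0.63 in *Foxp4* and 0.61 in *Foxk1*, whose transcripts hold 55.9%, 63.4% and 56.2% G or C. They were -0.48 in *Foxn3* (45.8%) and -0.38 in *Foxo1* (48.5%). *Foxp1*, with the lowest GC content of the members (44.9%), departed by 0.18 in that library and by -0.38 in C3G replicate 1. Spearman's rho of GC content with the departure of control replicate 1 was 0.754 across the 19 forkhead genes and 0.748 across 11211 genes, which are not independent. For C3G replicate 1 rho was 0.623 and 0.631. The part of GC content in the difference of *Foxp4* was not tested beyond the corrected value given above.

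**Figure D4:**
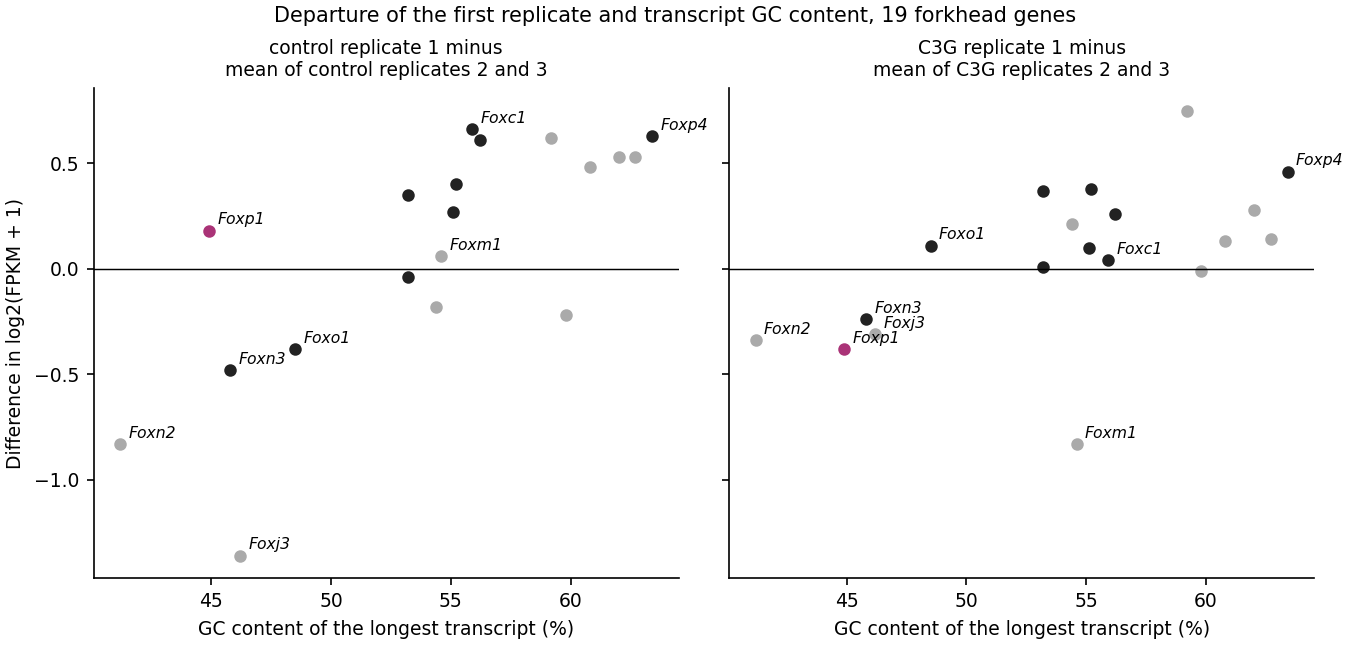
Departure of replicate 1 from the mean of replicates 2 and 3 of its group, in log2(FPKM + 1), against the GC content of the longest transcript for 19 forkhead genes (purple *Foxp1*, black other members, grey other forkhead genes). In the control panel *Foxn2*, *Foxj3*, *Foxn3* and *Foxo1* lie below 0 at low GC content while *Foxp1* lies at 0.18, and in the C3G panel *Foxm1* lies apart at -0.83.

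Of 34 further forkhead genes listed, 9 were in the files and 25 were not. None of the 9 was called by limma and none had an unadjusted p under 0.05, a count near the background of 0.650% called over all genes. *Foxm1*, which drives genes of the G2 and M phases, was the highest forkhead gene of all. It had 33.3, 30.1 and 33.9 FPKM in the untreated libraries, against 18.6, 35.8 and 31.7 FPKM after C3G. C3G replicate 1 stood far below the other 5 libraries, and the difference of -0.22 (exact permutation p = 0.8) was 0.05 without it. *Foxj3*, a paralog of *Foxj2*, had 1.44 FPKM in control replicate 1 and 3.89 to 5.30 FPKM in the other 5 libraries. *Foxn2*, a paralog of *Foxn3*, had 3.47 FPKM there against 4.81 to 7.20 in the others.

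*Foxf1*, a factor of gut and lung mesenchyme, had a mean of 16 ± 1.59 FPKM (SD, n = 3) without C3G and 18.4 ± 2.68 FPKM (SD, n = 3) with it (exact permutation p = 0.3). *Foxf2* had 1.75 FPKM in both groups, and *Foxc2* had 4.86 and 4.54 FPKM. *Foxl2*, known for its part in the ovary, had 5.25 and 4.69 FPKM, and *Foxs1* had 2.12 and 2.65 FPKM. *Foxd2* was the lowest, with 1.04, 0.309 and 0.531 FPKM in the untreated libraries, against 0.422, 0.399 and 0.197 FPKM after C3G. *Foxd2* reaches the 0.5 FPKM needed to be in the files only by its control mean (0.626, against 0.339 FPKM with C3G). That filter favours a negative estimate. Its difference of -0.26 was within the spread (exact permutation p = 0.3). The difference was -0.08 without control replicate 1, -0.03 with the GC correction and -0.64 with a pseudocount of 0.1.

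Genes around these factors were read from lists fixed by name, 80 genes in all, each of them in the files. None of the 80 was called by limma, nor had one an unadjusted p under 0.05, and with 0.650% of all genes called a count of 0 is near the background. The groups did not overlap in 3 of them (*Rbbp7*, *Ywhag* and *Irs2*), which is also near the background of 4.02%. The signs of the estimates in these lists stand beside 6960 above 0 and 4274 below over all genes, with a median of 0.06 that was -0.01 without control replicate 1. Of the 24 regulators of FoxO proteins (the insulin and IGF signalling chain, 14-3-3 proteins and FoxO-modifying enzymes), 19 estimates were above 0 and 5 below, with a median of 0.12. *Akt2*, one of the kinases that send FoxO proteins out of the nucleus, had the estimate farthest from 0. It had 22.6, 16.3 and 17.1 FPKM in the untreated libraries, against 22.8, 9.24 and 8.68 FPKM after C3G. C3G replicates 2 and 3 lay below every control library while C3G replicate 1 lay above all of them. The difference was -0.55 (exact permutation p = 0.4), and without C3G replicate 1 it was -0.97 and passed the threshold. It was -0.36 without C3G replicate 2 and -0.32 without C3G replicate 3. *Pdpk1*, the kinase that activates AKT, had 2.55 FPKM in control replicate 1 and 7.37 to 11.6 FPKM elsewhere (difference 0.42, exact permutation p = 0.7). *Pik3cb*, a PI3 kinase subunit (difference -0.12), passed in 1 of the 14 alternative settings, without control replicate 1, at -0.44.

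Of 25 known FoxO target genes, 18 estimates were above 0 and 7 below, with a median of 0.12; the difference from the signs over all genes was not tested. *Bnip3*, a mitophagy receptor, had 24, 68.1 and 60.3 FPKM in the untreated libraries, against 53.8, 82.2 and 61.9 FPKM after C3G (difference 0.48, exact permutation p = 0.5). Without control replicate 1, its lowest library, the difference was 0.02, and with the GC correction 0.28. *Ccng2*, a cyclin that slows the cell cycle, had 3.16, 3.94 and 5.59 FPKM without C3G and 5.68, 4.94 and 5.90 FPKM with it (difference 0.34, exact permutation p = 0.2). It passed without control replicate 3, at 0.52, and was 0.19 without control replicate 1. *Insr*, the insulin receptor (difference -0.24), passed with replicates 2 and 3 only, at -0.50, and was -0.12 without C3G replicate 2. *Irs2*, an adaptor of the insulin receptor, had 1.56, 1.57 and 1.59 FPKM without C3G and 1.21, 1.5 and 1.38 FPKM with it (difference -0.12, exact permutation p = 0.1).

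Of 14 genes for corepressors of FoxP proteins, 4 estimates were above 0 and 10 below, with a median of -0.03. *Gatad2b*, a NuRD subunit that binds FOXP1, had 2.65 FPKM in C3G replicate 1 and 5.06 to 9.24 FPKM in the others (difference -0.28, exact permutation p = 0.5). *Mbd3*, another NuRD subunit, had 102 FPKM in control replicate 1 and 47.6 to 61.0 FPKM in the others (difference -0.26, exact permutation p = 0.5), and its difference was 0.03 without that library and -0.03 with the GC correction. *Rbbp7*, a histone-binding subunit of NuRD, had 112, 103 and 108 FPKM in the untreated libraries, against 77.0, 96.2 and 99.2 FPKM after C3G (difference -0.25, exact permutation p = 0.1). The 10 FoxK partners had 7 estimates above 0 and 3 below, with a median of 0.04. In this list *Hcfc1* and *Sin3a* were lowest in control replicate 1, at 9.82 and 7.83 FPKM, against 20.2 to 21.2 and 12.3 to 14.8 FPKM in the other 5 libraries. Among the 7 osteoblast partners 4 estimates were above 0 and 3 below, with a median of 0.14. Of those below 0, *Sp7* reaches the 0.5 FPKM needed to be in the files only by its control mean (0.592, against 0.492 FPKM with C3G). That filter favours its sign. *Cebpb*, a partner of FOXP1 in the fat cell pathway, had 174 FPKM in control replicate 1 and 40.1 to 76.5 FPKM in the others (difference -0.45, exact permutation p = 0.5), and its difference was 0.20 without that library and -0.07 with the GC correction. *Rbpj*, the nuclear effector of Notch, had 3.13 FPKM in control replicate 1 and 5.61 to 8.74 FPKM in the others (difference 0.28, exact permutation p = 0.6, and 0.12 with the GC correction).

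Over the whole series, control replicate 1 had a median of 5.80 FPKM and 71 genes at 0, against 6.93 to 7.40 FPKM and 9 to 18 genes in the other 5 libraries. Of the 73 genes called, 45 were higher and 28 lower in the C3G group; with quantile normalization the split was 30 and 30. With the replicate number as a block 169 genes were called. Of 11 preosteoblast markers listed 10 were in the files, with *Runx2* at 5.46 to 9.07 FPKM and *Col1a1* at 923 to 4430 FPKM, but *Sp7* was low (0.237 to 0.857 FPKM) and *Ibsp* was not in the files. Of 7 macrophage and osteoclast markers 3 were in the files, and *Ptprc*, *Adgre1*, *Csf1r* and *Acp5* were not. The summed FPKM of these 3 (*Cd68*, *Lyz2* and *Ctsk*) was 48.8 to 74.1 in the control and 77.6 to 88.3 in the C3G libraries, with 1 of the 3 called (*Lyz2*), so it moved with the groups as *Foxp1* did, and its part in that difference was not tested. The summed FPKM of the chondrocyte markers *Sox9* and *Col2a1* overlapped between the groups (91.9 to 211 and 87.8 to 111). *Cdh1*, the only 1 of 3 epithelial markers in the files, had 0.524 to 0.929 and 0.894 to 1.37 FPKM. No endothelial, adipocyte or muscle marker listed was in the files.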

How the data were processed

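RNA-seq was carried out on 6 libraries of MC3T3-E1 cells, 3 per group, assigned by the sample titles. The authors checked reads with FastQC and used Ballgown for FPKM per gene. The analysis starts from the deposited FPKM. The submitters' processing notes name cutadapt, HISAT2 2.1.0, StringTie, STAR 2.5.2b and the build hg19, without roles, whereas the gene identifiers are those of mouse. The annotation release is not given in the sources used here; positions were taken from GENCODE M21 (GRCm38), whose version number 9812 of 11234 identifiers share. Symbols matched 11211 identifiers. The mean of 1 or both groups reaches 0.5 FPKM for every gene, and genes below that in both are absent. Counts were not used here, so depth is unknown.

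With R 4.3.3 and limma 3.58.1, a model of group alone was fitted to log2(FPKM + 1) by lmFit and eBayes (trend), and Benjamini-Hochberg adjustment ran over all genes. Exact permutation tests (two-sided) of single genes cannot go below p = 0.1. Thresholds follow the study (p of 0.05, taken as unadjusted, and fold change of 1.2). Same-numbered libraries departed together from their group means (r = 0.653, 0.58 and 0.44 across genes for numbers 1, 2 and 3, against -0.64 to 0.307 between different numbers, the highest between numbers 2 and 3), so the numbers in the titles were taken as pairs for an alternative fit with a replicate block. Other settings tried were 0.1 as pseudocount, only genes averaging 1 FPKM or more, quantile normalization, median centring, a GC correction (natural spline with 5 degrees of freedom), the block, both of these together, each library left out, and replicates 2 and 3 only. The fit was tested on simulated data drawn independently for each library. That test does not cover departures along GC content or by replicate number. Helix and promoter sequences were read with Python 3.11.15 from GENCODE M21 transcripts and from RefSeq windows (GRCm38.p6). The helix was found by translating coding transcripts. The helix bases of *Foxp1* are not reported here.

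Named genes are the 10 members, the other forkhead genes in the files, called genes and the 2 largest differences of each list, and the genes most like *Foxp1* over the libraries. *Pik3cb*, *Insr*, *Irs2*, *Rbbp7* and *Ywhag* were added after their values were seen. The members and lists were chosen with earlier results of these data known.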

Additional observations from a re-analysis of the deposited data

How the results depend on the processing

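Differences of the forkhead genes and of 12 named list genes, the median of the 9 members, and the counts of called genes were recomputed under 14 alternatives; medians of the other lists, FPKM ratios, correlations and marker sums were not. The difference of *Foxp1* was 0.74 to 1.07 (1.07 with replicates 2 and 3 only), and its sign was fixed by the choice of this gene. Over all genes 73 were called, against 169 with the replicate block, 135 with the GC correction, 246 with both, 191 with replicates 2 and 3 only, and 40 to 144 with 1 library left out (144 without control replicate 1, 127 without control replicate 2, and 45, 40 and 43 without C3G replicates 1, 2 and 3); none passed after adjustment in any of them. Of the 9 other members 0 were called in every alternative except replicates 2 and 3 only, where 1 was (*Foxp4*). Of the list genes 2 were called with replicates 2 and 3 only (*Akt2* and *Insr*), and 0 to 1 with 1 library left out. Among the 9 members and the list genes, the replicate block changed no call. With it the unadjusted limma p was 0.0524 for *Foxp4* and 0.0533 for *Akt2*. The causes were not tested.

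Estimates changed sign without passing the threshold in 14 of 126 values of the 9 members, 25 of 125 of the other forkhead genes and 10 of 168 of the 12 named list genes. With replicates 2 and 3 only *Foxc1* was at 0.07, *Foxk1* at 0.11, *Foxc2* at 0.02, *Foxf2* at -0.06, *Foxj3* at -0.05, *Foxm1* at 0.07, *Foxn2* at -0.11 and *Hcfc1* at -0.01. With the GC correction, alike with and without the block, *Foxk1* was at 0.05, *Foxc2* at 0.15, *Foxl2* at 0.05 and *Foxn2* at -0.15. With median centring *Foxk2* was at -0.04, *Foxf2* at -0.06 and *Foxn2* at -0.01, and with quantile normalization *Foxf2* at -0.09 and *Foxn2* at -0.04. With 1 library left out the ranges were -0.01 to 0.24 for *Foxo3*, -0.25 to 0.01 for *Foxo4*, -0.26 to 0.08 for *Foxc1*, -0.13 to 0.20 for *Foxk1* and -0.18 to 0.08 for *Foxn3*. They were -0.16 to 0.11 for *Foxc2*, -0.09 to 0.15 for *Foxf2*, -0.15 to 0.53 for *Foxj3*, -0.24 to 0.04 for *Foxl2*, -0.40 to 0.05 for *Foxm1*, -0.22 to 0.22 for *Foxn2* and -0.06 to 0.46 for *Foxs1*. Among list genes they were -0.53 to 0.20 for *Gatad2b*, -0.48 to 0.03 for *Mbd3*, -0.03 to 0.49 for *Hcfc1*, -0.01 to 0.37 for *Sin3a*, -0.17 to 0.74 for *Pdpk1*, -0.81 to 0.20 for *Cebpb*, -0.05 to 0.50 for *Rbpj* and -0.44 to 0.10 for *Pik3cb*. *Foxd2* could not be fitted under the filter on mean FPKM, which leaves it 13. Without a change of sign, *Bnip3* ranged from 0.02 to 0.75 over the 14 alternatives and *Foxd2* from -0.64 to -0.03 over its 13.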

Other observations

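Across the 6 libraries the gene whose log2(FPKM + 1) followed that of *Foxp1* most closely, among 10448 other genes with a mean of at least 1 FPKM, was *Itga11*, the collagen-binding integrin α11 (Pearson's r = 0.989). It had 29.6, 29.4 and 28.9 FPKM in the untreated libraries, against 30.8, 31.6 and 31.9 FPKM after C3G, a difference of only 0.10. The next were *Pigk* (0.978), *Acox3* (0.975), *Ttll4* (0.945) and *Flvcr1* (0.943), with differences of 0.52, 0.12, 0.52 and 0.71. The genes that ran most against it were *Cx3cl1* (-0.979), *Spata2* (-0.944) and *Tex2* (-0.926), with differences of -2.06, -0.23 and -0.36. These are descriptions over 6 points that share the group split, and no test was made of them.

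No forkhead gene was among the closest. These correlations use the *Foxp1* values by which it was chosen, so they are not separate from the group differences above. The correlation with *Foxp1* was -0.56 for *Foxp4*, 0.34 for both *Foxo1* and *Foxk2*, and 0.38 for *Foxf1*, the highest of any forkhead gene. Of the genes compared 2.81% had a lower value than *Foxp4*, 85.8% a lower value than *Foxo1* and 89.5% a lower value than *Foxf1*. Among the other 9 members some ran closely together: *Foxk1* had r = 0.93 with *Foxj2*, 0.89 with *Foxc1* and 0.87 with *Foxo4*, and -0.93 with *Foxn3*. *Foxp4* had r = 0.91 with *Foxo4*. *Foxk1*, *Foxj2*, *Foxc1* and *Foxo4* have transcripts of 55.1% to 56.2% G or C and *Foxn3* has 45.8%, and the libraries depart along GC content, whose part in these correlations was not tested.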
